A study of Triticum aestivum with 12 samples.

Results

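In heat-stressed anthers of the wheat cultivar ‘Mv 17-09’, 83 genes were reduced to at most 1/8 of their control level. In ‘Ellvis’ the same genes stayed between 0.67 and 1.5 times theirs, and these 83 are described here. They were chosen from 266760 gene IDs by their measured values in CPM (a count divided by the library total and multiplied by 1e+06). A gene had to average at least 5 CPM in ‘Mv 17-09’ controls and at least 1 CPM in ‘Ellvis’ control replicates 2 and 3, to have a heat-stressed ‘Mv 17-09’ mean of at most 1/8 of its control mean, and to have an ‘Ellvis’ ratio of heat-stressed to control mean between 0.67 and 1.5. IDs ending in LC, IDs in the study's lists of qPCR, meiosis, spindle, actin and tapetum genes, and 1B IDs numbered under 400000 were left out. Because both heat contrasts chose the genes, the falls in ‘Mv 17-09’ and the levels kept within these limits in ‘Ellvis’ are descriptions and carry no test.

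Heat-stressed plants of ‘Mv 17-09’, which the study treats as the sensitive cultivar, and of ‘Ellvis’, its tolerant one, were kept at 35 °C for 24 h, and unstressed plants of each cultivar at the same developmental stage served as controls. Whole anthers were taken at the end of the treatment, and each of the 4 groups has 3 libraries that the study calls independent biological replicates. The tissue holds meiocytes, tapetum and outer wall layers together, so fewer cells of a type and less RNA per cell cannot be told apart in any value below. Plants behind a library and the growing round it came from are not tied to the replicate numbers in the sources used here, so all tests measure the spread between these libraries.

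The tapetum is the innermost layer of the anther wall and feeds the developing meiocytes and microspores. It also makes the precursors of sporopollenin, the tough polymer of the outer pollen wall, through acyl-CoA synthetases, polyketide synthases and reductases, under a cascade of transcription factors known best from Arabidopsis and rice. In many cereals the period around male meiosis is one of the stages at which heat most easily causes pollen sterility. None of the 83 IDs was paired with a gene name or product in the sources used here, so the genes are given by ID, in which 5A, for example, stands for chromosome 5 of the A subgenome of this hexaploid wheat.

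Library totals lay between 9336312 and 20846135 counts in 11 libraries, with the 3 heat-stressed ‘Mv 17-09’ libraries at the low end. ‘Ellvis’ control replicate 1 stood apart with 1831675 counts and was left out of the ‘Ellvis’ control mean by the rule. All lists of anther cell types were present: the 27 tapetal transcription factors summed to 1013 to 1047 CPM in ‘Mv 17-09’ controls and 1 of them was at 0 in all libraries. At this depth 3 counts correspond to 0.310 to 0.321 CPM in heat-stressed ‘Mv 17-09’ libraries, against 0.144 to 0.189 CPM in their controls.

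The 83 genes together made up 361, 415 and 567 CPM in the 3 heat-stressed ‘Mv 17-09’ libraries, against 5725, 6564 and 6323 CPM in the ‘Mv 17-09’ controls. Their sum was 7627, 7353 and 5471 CPM in heat-stressed ‘Ellvis’, against 7377 and 6883 CPM in ‘Ellvis’ control replicates 2 and 3. Thus over 0.5% of all counts in every other library came from these genes, and at most 0.0567% in heat-stressed ‘Mv 17-09’. The median gene averaged 1.96 CPM in heat-stressed ‘Mv 17-09’ and 24.2 CPM in its controls, and 19.4 CPM in heat-stressed ‘Ellvis’ and 17.6 CPM in its controls.

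**Figure D1:**
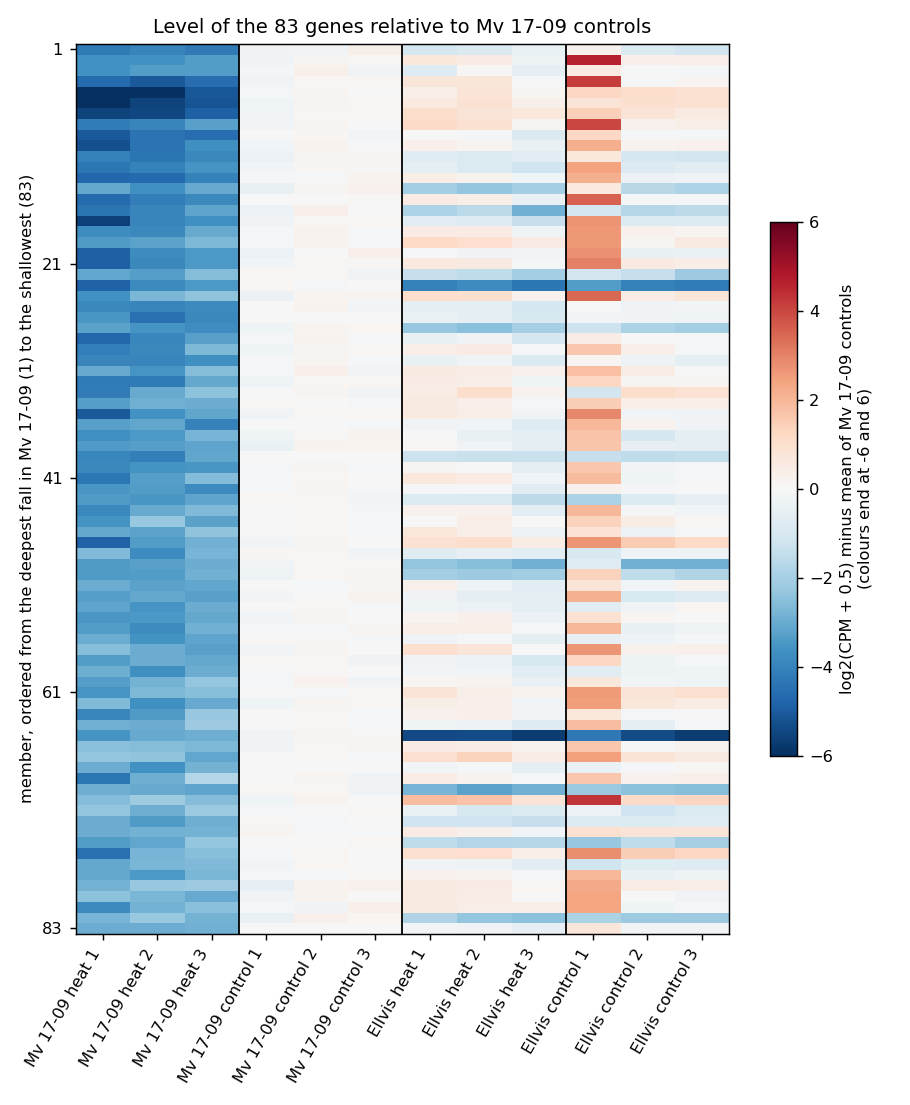
Level of each of the 83 genes (rows, deepest fall in ‘Mv 17-09’ at the top) in each of the 12 libraries (columns), as log2(CPM + 0.5) minus the mean of the 3 ‘Mv 17-09’ controls, with blue lower and red higher. The 3 heat-stressed ‘Mv 17-09’ columns are blue in every row, ‘Ellvis’ columns are pale in most rows, and ‘Ellvis’ control replicate 1 is red in many.

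The fall in ‘Mv 17-09’ had a median of 12.6-fold and ranged between 8.02-fold and 264-fold. It was under 10-fold in 28 genes, at least 16-fold in 24, at least 32-fold in 9 and at least 64-fold in 5. In 82 of the 83 genes, or 98.8%, every ‘Mv 17-09’ control library was at least 4 times every heat-stressed one, against 1.31% of the 23445 genes over both control minimums, a count that the rule all but sets. The exception was TraesCS1D03G0993200, whose lowest control was 3.36 times its highest heat-stressed value. The edgeR quasi-likelihood test called 83 of 83 genes lower in heat-stressed ‘Mv 17-09’ (Benjamini-Hochberg adjusted p under 0.05 and at least 2-fold), where it called 6.93% of 70527 genes tested, a count that the choice of the genes fixes.

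The ‘Ellvis’ ratio of heat-stressed to control mean was above 1 in 42 genes and below 1 in 41, and lay between 0.9 and 1.1 in 22. Heat-stressed libraries and control replicates 2 and 3 of ‘Ellvis’ overlapped in 57 genes and not in 26, or 31.3%, against 57.0% of the 23445 genes over both control minimums. Heat-stressed ‘Ellvis’ was above both controls in 9 of the 26 and below both in 17, or 10.8% and 20.5% of the members, against 28.3% and 28.7%. By the edgeR test 0 members were called lower or higher in heat-stressed ‘Ellvis’, where 1.64% and 1.98% of all genes were. Without ‘Ellvis’ control replicate 1 it was again 0, where 2.17% and 4.29% were. The limits of the rule all but set these counts. The difference between the heat effects of the cultivars was called negative in 64 genes, where 3.75% of all genes were called, and in 83 genes without ‘Ellvis’ control replicate 1, where 7.13% were. The median log2 fold change of the members in heat-stressed ‘Ellvis’ was -0.564 with all libraries, against 0.001 over all genes. Without ‘Ellvis’ control replicate 1 it was -0.134, against 0.031, with a range of -0.697 to 0.448. Some changes under 2-fold passed adjusted p under 0.05 there. Most were down, as in TraesCS4A03G0655400 (-0.609) and TraesCS3B03G1317600 (-0.657), and only TraesCS5A03G0410500 (0.444) was up. At unadjusted p under 0.05 in the same edgeR fit, 23 members were lower and 6 higher, with no share of all genes taken. These counts and values too come from contrasts that chose the genes.

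**Figure D2:**
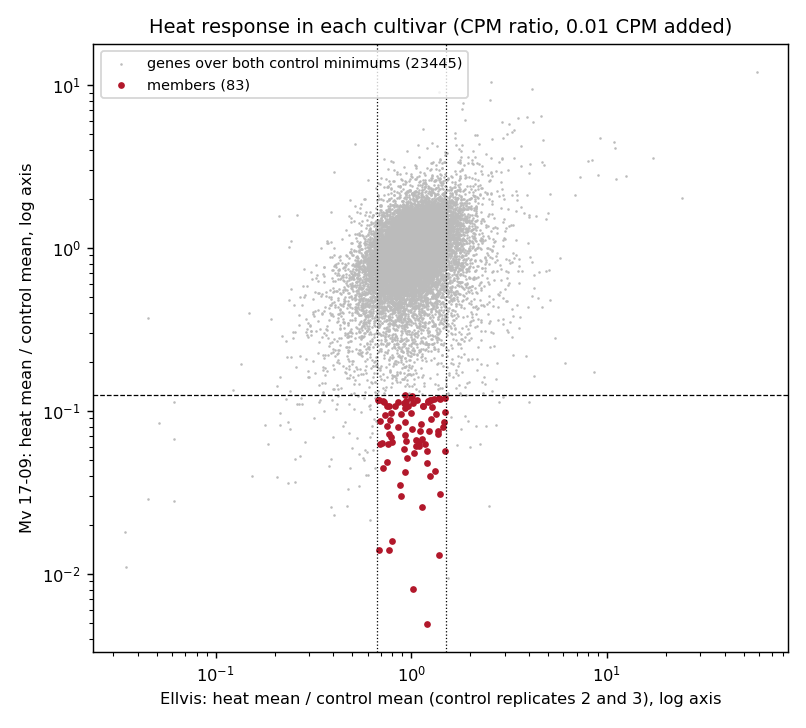
Ratio of heat-stressed to control mean CPM in ‘Mv 17-09’ (vertical, log axis) against the same ratio in ‘Ellvis’ (horizontal, log axis, control replicates 2 and 3) for the 23445 genes over both control minimums, with 0.01 CPM added to each mean. The 83 members (red) lie under the dashed line at 1/8 and between the dotted lines at 0.67 and 1.5, and 71 and 16 other genes under the dashed line lie to their left and right.

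Of the 23445 genes over both control minimums, 170 fell to at most 1/8 in ‘Mv 17-09’. The ‘Ellvis’ ratio of these 170 was below 0.67 in 71, within the limits in the 83 members and above 1.5 in 16. Only 7 of the 170 fell to at most 1/8 in ‘Ellvis’ too. With the cultivars exchanged, 8 genes fell to at most 1/8 in ‘Ellvis’, and 1 of them had an ‘Mv 17-09’ ratio between 0.67 and 1.5. Over all 23445 genes the median ratio was 0.997 in ‘Mv 17-09’ and 1.002 in ‘Ellvis’.

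The most abundant member was TraesCS5A03G0761400, at 22.1, 23.6 and 35.2 CPM in heat-stressed ‘Mv 17-09’, against 923, 1150.3 and 1088 CPM in its controls. In ‘Ellvis’ it had 2195, 1809.9 and 1613 CPM under heat, against 1769 and 1528 CPM in control replicates 2 and 3. The 39.1-fold fall thus concerned a gene that took about 1 in 1000 counts of an unstressed anther, and the ‘Ellvis’ groups overlapped.

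TraesCS5D03G0721500 had 1.03, 2.83 and 7.39 CPM in heat-stressed ‘Mv 17-09’, against 243, 295 and 263 CPM in its controls, a 71.1-fold fall. In ‘Ellvis’ it had 338, 461 and 294 CPM under heat, against 558 and 509 CPM in control replicates 2 and 3. All heat-stressed ‘Ellvis’ libraries were thus below both controls, at a ratio of 0.683 that lies just inside the limit.

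TraesCS5B03G0795800 had 0.827, 2.72 and 3.75 CPM in heat-stressed ‘Mv 17-09’, against 128, 168 and 161 CPM in its controls, a 62.6-fold fall. In ‘Ellvis’ it had 226, 284 and 187 CPM under heat, against 296 and 286 CPM in control replicates 2 and 3. These 3 genes stand at nearly the same relative place on chromosomes 5A, 5B and 5D, as described below, and all had a lower mean in ‘Mv 17-09’ controls than in ‘Ellvis’ control replicates 2 and 3.

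TraesCS4D03G0284800 had 9.00, 26.6 and 37.2 CPM in heat-stressed ‘Mv 17-09’, against 248, 312 and 278 CPM in its controls. TraesCS4B03G0335300 followed it closely, with 11.5, 37.3 and 43.7 CPM in heat-stressed ‘Mv 17-09’, against 247, 288 and 256 CPM in its controls. In heat-stressed ‘Ellvis’ they had 376 to 573 and 340 to 533 CPM, against 632 to 790.5 and 627 to 744 CPM in control replicates 2 and 3. Both ran below every control there, with ratios of 0.689 and 0.674.

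TraesCS5B03G0407500 had 35.3, 26.7 and 44.7 CPM in heat-stressed ‘Mv 17-09’, against 281, 287 and 328 CPM in its controls. In ‘Ellvis’ it had 354, 343 and 272 CPM under heat, against 218 and 242 CPM in control replicates 2 and 3, so that all heat-stressed libraries were above these controls. TraesCS5A03G0410500 had a like pattern, at 18.4, 14.03 and 25.8 CPM in heat-stressed ‘Mv 17-09’, against 188, 180.5 and 219 CPM in its controls. In heat-stressed ‘Ellvis’ it had 259, 248 and 179 CPM, against 144 and 164 CPM, a ratio of 1.49 close to the upper limit.

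TraesCS6D03G0037100 had 20.5, 20.9 and 27.4 CPM in heat-stressed ‘Mv 17-09’, against 213, 262 and 231 CPM in its controls, and an ‘Ellvis’ ratio of 0.991. TraesCS3B03G0476600 had 20.99, 13.0 and 22.7 CPM in heat-stressed ‘Mv 17-09’, against 172, 163 and 165 CPM in its controls, and an ‘Ellvis’ ratio of 0.856. TraesCS1A03G0224600 had 3.31, 11.3 and 14.03 CPM in heat-stressed ‘Mv 17-09’, against 158, 198 and 199 CPM in its controls. Its 3 heat-stressed ‘Mv 17-09’ libraries differed among themselves more than those of the other pair, and replicate 1 was the lowest of them.

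The deepest falls were in genes with few counts left. TraesCS1B03G0853300 had 0, 0.105 and 0 CPM in heat-stressed ‘Mv 17-09’, against 7.81, 8.11 and 11.7 CPM in its controls. This was 1 count under heat against 487 in controls, and the 264-fold fall has an exact 95% interval of 46.6-fold to 10329-fold, which covers counting error only. In ‘Ellvis’ it had 4.13, 4.80 and 6.68 CPM under heat, against 4.79 and 3.88 CPM in control replicates 2 and 3, and the groups overlapped.

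TraesCS5D03G0149700 had 0, 0 and 0.107 CPM in heat-stressed ‘Mv 17-09’, against 4.79, 6.28 and 5.85 CPM in its controls. With 1 count against 304 its 158-fold fall has an interval of 29.0-fold to 6456-fold. TraesCS1B03G1220900 had 2 counts against 310, an 80.8-fold fall by mean CPM, with an interval of 22.8-fold to 689-fold. No member was at 0 in all 3 heat-stressed ‘Mv 17-09’ libraries, and only these 3 had 3 or fewer counts there in sum.

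TraesCS5B03G1036200 had 0.310, 0.105 and 0.321 CPM in heat-stressed ‘Mv 17-09’, against 16.4, 20.7 and 21.2 CPM in its controls, a 79.2-fold fall. In ‘Ellvis’ it had 32.3, 32.1 and 18.03 CPM under heat, against 17.5 and 22.02 CPM in control replicates 2 and 3. The ‘Mv 17-09’ groups were far apart and the ‘Ellvis’ groups overlapped. TraesCS5B03G0139300, TraesCS5D03G0441500 and TraesCS5A03G0810000 completed the 10 deepest falls, at 33.4-fold, 33.4-fold and 28.8-fold.

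**Figure D3:**
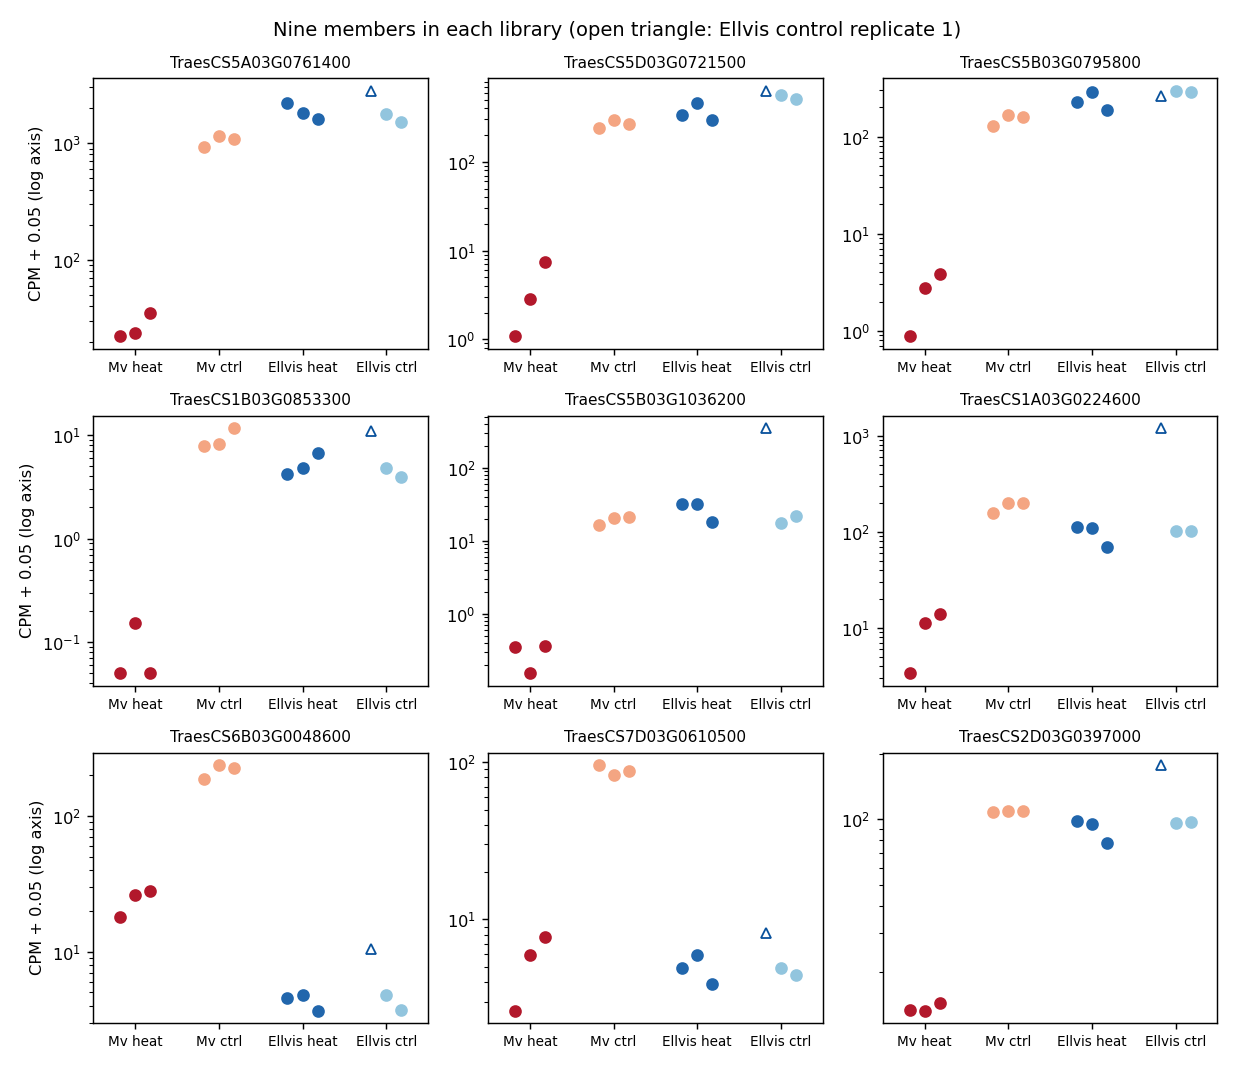
CPM + 0.05 (log axes, which differ between panels) of 9 members in each of the 12 libraries, one point a library, with the groups in the order heat-stressed and control ‘Mv 17-09’, heat-stressed and control ‘Ellvis’. In every panel the heat-stressed ‘Mv 17-09’ points lie below their controls, and the open triangle of ‘Ellvis’ control replicate 1 reaches 1204 CPM for TraesCS1A03G0224600 and 350.5 CPM for TraesCS5B03G1036200.

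The depth of the fall varied between heat-stressed ‘Mv 17-09’ libraries. Replicate 3 had the highest of the 3 values in 72.3% of the members, against 33.2% of the 23445 genes over both control minimums. Replicate 1 had the lowest in 57.8%, against 34.5%. In heat-stressed ‘Ellvis’, replicate 3 had the lowest value in 84.3% of the members, against 36.0%. The mean log2 CPM of the 83 genes was 0.999, 1.30 and 1.72 in heat-stressed ‘Mv 17-09’, against 4.92, 5.13 and 5.05 in its controls, so the differences between libraries of a group were small beside the fall.

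When the rule was applied without 1 library, it chose between 74 and 94 genes, and these were read in the library left out. Their median ratio of heat-stressed to control level in it was 0.0625 to 0.111 for ‘Mv 17-09’ libraries and 0.714 to 1.16 for ‘Ellvis’ libraries. A fall to at most 1/8 was met by 59.6% to 97.5% of them in the ‘Mv 17-09’ library left out, least in heat-stressed replicate 3, and by 0.644% to 1.07% of the 23445 genes. The ‘Ellvis’ limits were met by 56.0% to 92%, least in heat-stressed replicate 3 of that cultivar, against 84.5% to 86.3% of the 23445 genes. For control replicate 3 the share was 92% of the chosen genes, against 85.1%, and for the other 4 ‘Ellvis’ libraries it was below that of the 23445. Each ratio sets the library left out against the mean of the other group, which had a part in the choice, so these values are a description.

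‘Ellvis’ control replicate 1, which had no part in the choice either, held these genes at far higher levels than its fellow controls. Their sum was 19564 CPM in it, against 7377 and 6883 CPM in replicates 2 and 3. It was above both other controls in 72 of the 83 genes and above all 11 other libraries in 58, counts for which no share of the 23445 genes was taken. Its level was at least 2 times the mean of replicates 2 and 3 in 50 members, or 60.2%, against 5.76% of the 23445 genes over both control minimums. It was at least 5 times that mean in 27.7%, against 0.832%, and below it in 13.3%, against 73.7%. The median ratio was 2.56 over the members and 0.711 over all 23445 genes, and the lowest was 0.219 in TraesCS4B03G0065100.

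The largest excess was in TraesCS5D03G0149700, at 147 CPM in replicate 1, against 7.10 and 6.99 CPM in replicates 2 and 3. TraesCS5B03G1036200 had 350.5 CPM in replicate 1, against 17.5 and 22.02 CPM. TraesCS5B03G0139300, TraesCS5D03G0939500 and TraesCS1A03G0224600 were 13.4, 12.2 and 11.8 times as high. These 5 genes were thus over 10 times as high as in the other controls of the same group, while TraesCS5B03G0795800, with 259 CPM, was below both.

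The other genes that fell to at most 1/8 in ‘Mv 17-09’ also stood high in this library, to unlike extents. Of the 16 whose ‘Ellvis’ ratio was above 1.5, 15 were at least 2 times as high in it as in replicates 2 and 3, with a median of 6.48 times. Of the 71 with a ratio below 0.67, 20 were, with a median of 1.31 times. The study's list of 202 tapetum genes moved with the members in it, at 39829 CPM in replicate 1, against 19743 and 20832 CPM in the other controls, while the 209 meiosis genes summed to 1594 CPM, against 2552 to 2568 CPM. The spindle and actin lists were lower in replicate 1 too, at 5795 and 1512 CPM, against 9431 to 9474 and 1929 to 1930 CPM. A level below the other controls was common there, with the median ratio of 0.711 over the 23445 genes given above. The part of the tapetum's share or of the low depth in these levels was not tested. With this library in the ‘Ellvis’ control mean the rule chose 47 genes, of which 34 are members.

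**Figure D4:**
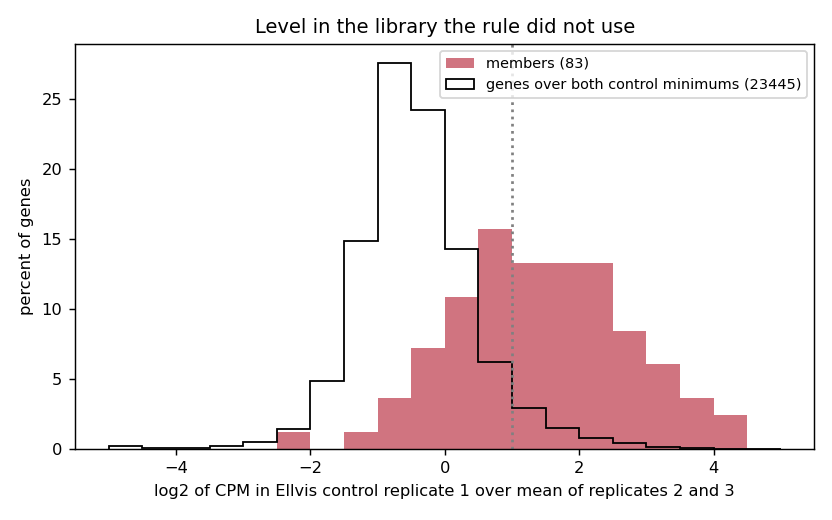
Distribution of the log2 ratio of CPM in ‘Ellvis’ control replicate 1 over the mean of control replicates 2 and 3 (horizontal), in percent of genes (vertical), for the 83 members (red) and the 23445 genes over both control minimums (black outline). The dotted line marks a 2-fold excess, passed by 60.2% of the members and 5.76% of all these genes.

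Levels in unstressed anthers were set side by side between the cultivars. The choice bears on them, since a gene had to pass 5 CPM in ‘Mv 17-09’ controls but only 1 CPM in ‘Ellvis’ controls, and its ‘Mv 17-09’ control mean had to be at least 8 times its heat-stressed mean. The values are therefore a description, with no p. The mean of ‘Mv 17-09’ controls was within 2-fold of that of ‘Ellvis’ control replicates 2 and 3 in 65 of the 83 genes, or 78.3%, against 93.5% of the 23445 genes over both minimums. It was at least 2 times as high in 15 genes, or 18.1%, against 4.36%, and at most 1/2 in 3 genes, or 3.61%, against 2.09%. Of these 15, 9 had an ‘Ellvis’ control mean under 5 CPM and so passed that level through ‘Mv 17-09’ alone. Among genes of at least 5 CPM in both, 6 of 74 members, or 8.11%, were at least 2 times as high in ‘Mv 17-09’, against 2.13% of 21912 genes.

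By the edgeR quasi-likelihood test over all 12 libraries, 12 members, or 14.5%, were higher in ‘Mv 17-09’ controls, against 5.83% of all genes tested and 4.77% of the 23445. Without ‘Ellvis’ control replicate 1 it was 15 members, or 18.1%, against 7.79% and 4.89%. The 12 were among these 15. Of the lower direction, 12 members were called with all libraries, against 7.02% of all genes and 1.81% of the 23445, but only 3 without ‘Ellvis’ control replicate 1, against 7.23% and 1.66%. That count was also 19 without ‘Ellvis’ control replicate 2, 4 without any one of the ‘Mv 17-09’ controls, and 6 with the replicate number as a block, where 6.83% of all genes were called. The number of lower calls among the members thus changed with single libraries, but no share of all genes is given beside the counts of 19 and 4. For this reason and because of the unequal minimums, nothing is read from the calls in either direction.

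The largest difference was in TraesCS6B03G0048600, with 187, 238 and 224 CPM in ‘Mv 17-09’ controls, against 10.4, 4.73 and 3.67 CPM in ‘Ellvis’ controls. Its ‘Ellvis’ control mean of 4.20 CPM was among the 9 under 5 CPM, and the fitted log2 difference was 5.50, and 5.74 without ‘Ellvis’ control replicate 1. In heat-stressed ‘Mv 17-09’ it had 17.99, 26.3 and 28.2 CPM, against 4.50, 4.74 and 3.63 CPM in heat-stressed ‘Ellvis’. Its level after the fall was therefore still above every heat-stressed ‘Ellvis’ library.

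TraesCS7D03G0610500 had 95.9, 82.3 and 87.5 CPM in ‘Mv 17-09’ controls, against 8.19, 4.85 and 4.36 CPM in ‘Ellvis’ controls, a log2 difference of 4.20, and of 4.32 without ‘Ellvis’ control replicate 1. Under heat it had 2.59, 5.86 and 7.71 CPM in ‘Mv 17-09’, which overlapped the 4.86, 5.93 and 3.86 CPM of ‘Ellvis’. These were the 2 members whose heat-stressed mean was higher in ‘Mv 17-09’ than in ‘Ellvis’. In 73 of the 83 the heat-stressed ‘Ellvis’ mean was at least 4 times that of heat-stressed ‘Mv 17-09’, a count that the limits of the rule largely set.

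TraesCS7D03G1251300, TraesCS1D03G0655800 and TraesCS6A03G0011500 were next, with log2 differences of 2.68, 2.58 and 2.49, and of 3.16, 2.63 and 2.53 without ‘Ellvis’ control replicate 1. TraesCS1D03G0655800, for example, had 67.4, 71.6 and 56.9 CPM in ‘Mv 17-09’ controls, against 13.6, 11.4 and 10.6 CPM in ‘Ellvis’ controls. In heat-stressed ‘Ellvis’ TraesCS1D03G0655800 had 8.99, 6.58 and 8.29 CPM, all below control replicates 2 and 3, at a ratio of 0.722. For such members the ‘Ellvis’ ratio, flat or not, was measured from a lower control level than the fall in ‘Mv 17-09’.

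At the other end, TraesCS5A03G0902900 had 4.79, 6.72 and 5.91 CPM in ‘Mv 17-09’ controls, against 123, 13.3 and 14.5 CPM in ‘Ellvis’ controls. Its log2 difference was -2.68, and -1.18 without ‘Ellvis’ control replicate 1. It was 1 of the 3 members called lower without that library, and the others were TraesCS4D03G0284800 and TraesCS4B03G0335300, at -1.28 and -1.31. The remaining members of the lowest 5, TraesCS5D03G0149700, TraesCS5B03G1036200, TraesCS5B03G0139300 and TraesCS5D03G0939500, had log2 differences of -2.73, -2.55, -2.31 and -2.07 with it. Without it these were -0.25, 0.05, -0.24 and 0.13, and none was called.

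**Figure D5:**
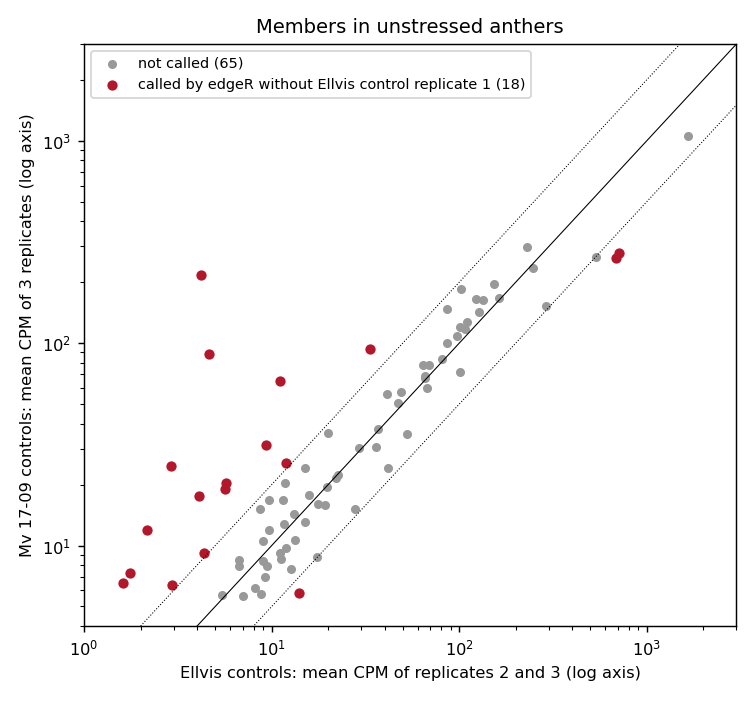
Mean CPM of the 3 ‘Mv 17-09’ controls (vertical, log axis) against the mean of ‘Ellvis’ control replicates 2 and 3 (horizontal, log axis) for the 83 members, one point a gene, with a solid line at equal levels and dotted lines at 2-fold. Red marks the 18 genes called by edgeR without ‘Ellvis’ control replicate 1, 15 of them above the solid line and 3 below it, while 65 lie within 2-fold.

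By their IDs, 21 members lie on the A subgenome, 27 on B and 35 on D, or 25.3%, 32.5% and 42.2%, where the 23445 genes over both minimums have 33.2%, 32.2% and 34.2%. Chromosome groups 4 and 5 held 19 and 21 members, or 22.9% and 25.3%, against 13.2% and 16.3% of the 23445. Chromosome 4D had the most, with 8, and chromosome 7B had none of its 1040 genes among the members. These shares were not tested, since copies on A, B and D chromosomes are not independent draws.

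Some members lay at like places of the A, B and D chromosomes. ID numbers rise along a chromosome: of 803 neighbouring pairs of listed genes with a RefSeq position, 98.3% were in rising order. Counting each ID number as a share of the highest on its chromosome, 35 pairs of members on different chromosomes of a group lay within 2 percentage points, and 46 of the 83 members were in such a pair. These were 9.19% of the 381 pairs of members on different chromosomes of a group, against 4.30% of such pairs among the 23445 genes over both minimums. TraesCS5A03G0761400, TraesCS5D03G0721500 and TraesCS5B03G0795800 lay at 58.3%, 58.3% and 57.4%. TraesCS3B03G0476600, TraesCS3D03G0373500 and TraesCS3A03G0401600 lay at 31.2%, 31.0% and 31.4%. Such genes may be copies of one another, but the sources used here do not pair them. Reads of near-identical copies can be shared between models, and how the authors assigned them is not given, so single copies are less certain than a set.

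Over the 9 libraries other than heat-stressed ‘Mv 17-09’, log2(CPM + 0.5) of these 35 pairs had a median Pearson correlation of 0.787, and of all 3403 pairs of members 0.539. Without ‘Ellvis’ control replicate 1 these medians were 0.556 and 0.284 over 8 libraries. Over the 9 libraries it was 0.998 for TraesCS4D03G0284800 and TraesCS4B03G0335300, 0.993 for TraesCS5B03G0407500 and TraesCS5D03G0361500, and 0.991 for TraesCS5D03G0939500 and TraesCS5B03G1036200. TraesCS6B03G0048600 and TraesCS6D03G0037100, at 3.72% and 3.98% of their chromosomes, had -0.13. Another 4 pairs were below the median of all pairs, namely TraesCS5A03G0810000 with TraesCS5B03G0839900 at 0.105, TraesCS4D03G0037500 with TraesCS4B03G0065100 at 0.275, TraesCS2A03G0785400 with TraesCS2D03G0779100 at 0.350, and TraesCS1D03G0993200 with TraesCS1B03G1220900 at 0.502.

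Few members were neighbours on a chromosome. TraesCS1B03G1220800 and TraesCS1B03G1220900 are consecutive models, and TraesCS1D03G0993200 and TraesCS1D03G0993400 are separated by 1 model. The 4 lie at 95.03%, 95.03%, 94.65% and 94.67% of 1B and 1D. TraesCS1B03G1220800 had 0.620, 1.05 and 1.71 CPM in heat-stressed ‘Mv 17-09’, against 10.02, 12.7 and 8.93 CPM in its controls. TraesCS1D03G0993400 had 5.17, 6.81 and 6.32 CPM, against 60.7, 61.4 and 49.7 CPM. All 4 are members, so their falls were set by the rule.

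Among the 5 models on each side of a member, 130 other genes passed both control minimums, and their median ‘Mv 17-09’ ratio was 0.996. Of these, 120 were genes that the exclusions of the rule keep, and the ratio was at most 1/2 in 14 of them, or 11.7%, against 7.77% of the 23362 genes over both minimums that are not members. It was at most 1/8 in 3 of the 120, or 2.50%, against 0.372%, and in 1 of the flanking LC models. These were TraesCS2A03G0398600, TraesCS4D03G0037100, TraesCS5A03G1031900LC and TraesCS5B03G0407600. TraesCS2A03G0398600 and TraesCS5B03G0407600 are next to the members TraesCS2A03G0398500 and TraesCS5B03G0407500. Their ‘Ellvis’ ratios of 0.635 and 2.40 kept them out.

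No member has coordinates in the sources used here, but listed genes on either side give a bracket on the IWGSC RefSeq v2.1 assembly. If ID order holds, TraesCS5A03G0761400 lies on chromosome 5A between 514408177 and 556982824, TraesCS5D03G0721500 on 5D between 411164471 and 424741152, and TraesCS5B03G0795800 on 5B between 492776483 and 513426947. TraesCS1A03G0224600 has the narrow bracket 82637947 to 90619053 on 1A.

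The study's tapetum list was left out of the choice, and 5 of its 87 genes over both control minimums, or 5.75%, met every measured condition of it, where the members are 0.354% of the 23445 genes. Their pattern is fixed by those conditions. TraesCS3A03G0093800 and TraesCS3D03G0060200, listed as tetraketide alpha-pyrone reductase 2-like, an enzyme of the sporopollenin pathway, averaged 12.6 and 16.3 CPM in heat-stressed ‘Mv 17-09’, against 107 and 169 CPM in its controls. TraesCS5A03G0006300 and TraesCS5B03G0005500, listed as type III polyketide synthase B-like, which acts just before that reductase, averaged 13.8 and 15.9 CPM, against 194 and 157 CPM. TraesCS4B03G0536300, a myb-related gene that the list gives as TDF1, a tapetal transcription factor in Arabidopsis, averaged 4.76 CPM, against 43.95 CPM. Their ‘Ellvis’ ratios were 0.889 to 1.49.

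Of the 119 tapetum genes tested, 56 were lower and 19 higher in heat-stressed ‘Mv 17-09’, with a median log2 fold change of -0.73, where 6.93% of all genes were lower and 4.67% higher (edgeR quasi-likelihood test, adjusted p under 0.05 and 2-fold). In heat-stressed ‘Ellvis’ 3 were lower and 13 higher, where 1.64% and 1.98% of all genes were, with a median log2 fold change of -0.04. Without ‘Ellvis’ control replicate 1, in which the list was high, 4 of 121 were lower and 18 higher, where 2.17% and 4.29% of all genes were, and the median was 0.16. The list summed to 7354 to 8846 CPM in heat-stressed ‘Mv 17-09’, against 22770 to 25136 CPM in its controls, and its 27 transcription factors to 364 to 369 CPM, against 1013 to 1047 CPM. In heat-stressed ‘Mv 17-09’ spindle genes were lower in 32 and higher in 2 of 341, meiosis genes lower in 5 and higher in 4 of 158, and actin genes lower in 11 and higher in 4 of 80. Without ‘Ellvis’ control replicate 1, 7 of 166 meiosis genes were higher there and 6 lower. Spindle genes were higher in 5 and lower in 33 of 346, and actin genes higher in 4 and lower in 14 of 81. No share of all genes is given beside these counts, so nothing is read from them. Since the study collected these lists for work on the same libraries, their direction is no independent evidence, and the part of the tapetum's share of the anther in the fall of the members was not tested.

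The 5 other genes whose log2 CPM followed the mean of the members most closely over the 12 libraries, among 69615 genes, were TraesCS3D03G0385300, TraesCS6A03G0197800, TraesCS2D03G0629900, TraesCS2B03G0757300 and TraesCS3A03G0652000, with Pearson correlations of 0.995, 0.991, 0.991, 0.990 and 0.990. Over the 11 libraries without ‘Ellvis’ control replicate 1 these were 0.994, 0.990, 0.995, 0.995 and 0.990, and only TraesCS2D03G0629900 was still among the 5 most alike. TraesCS2D03G0629900 and TraesCS2B03G0757300 are in the tapetum list as 4-coumarate-CoA ligase-like 9, an acyl-activating enzyme class that includes the first step of sporopollenin precursor synthesis. They averaged 385 and 426 CPM in heat-stressed ‘Mv 17-09’, against 1775 and 2101 CPM in its controls, and 1515 and 1755 CPM in heat-stressed ‘Ellvis’, against 1548 and 1725 CPM in control replicates 2 and 3. In ‘Ellvis’ control replicate 1 they had 3704 and 4436 CPM, so they shared the excess in that library as well. The correlation rests on the contrast that chose the members, and says only that the shape of the pattern was alike.

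The limits of the rule were not gaps in the data. TraesCS2D03G0397000 and TraesCS6A03G0011500 fell 8.02-fold and 8.11-fold and were just inside, while TraesCS3B03G0969500 and TraesCS1A03G0776200 fell 7.97-fold and 7.91-fold and were just outside. Of genes that met all else, TraesCS1A03G1031300 and TraesCS2D03G0856300 missed the lower ‘Ellvis’ limit with ratios of 0.661 and 0.653, and TraesCS1A03G0748400 and TraesCS6D03G0620300 the upper one with 1.54 and 1.59. On the inner side of the upper limit were TraesCS4A03G0107600 and TraesCS2A03G0398500, at 1.49 each, and of the lower one TraesCS4B03G0335300 and TraesCS5D03G0721500, given above.

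TraesCS5D03G0149700 and TraesCS1B03G1220900 were just above the minimum of 5 CPM in ‘Mv 17-09’ controls, at 5.64 and 5.71 CPM, and TraesCS4A03G0745400 and TraesCS5A03G0126900 just below it, at 4.989 and 4.84 CPM. TraesCS7A03G0832300 and TraesCS2D03G0779100 had the lowest ‘Ellvis’ control means of the members, at 1.62 and 1.75 CPM. A single gene, TraesCS7A03G1327000, failed on that minimum alone, at 0.0981 CPM. A wider rule, with a fall to at most 1/4, gave 276 genes, and a narrower ‘Ellvis’ range, between 0.8 and its reciprocal, gave 44.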

How the data were processed

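The authors extracted total RNA from whole anthers, depleted ribosomal RNA, made directional libraries, checked reads with FastQC 0.11.8, and trimmed and mapped them to IWGSC RefSeq v2.1 with CLC Genomics Workbench. What they deposited are raw counts for each gene model, with no normalization. The sources used here give neither the strand setting nor the treatment of reads shared by several copies.

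Members and lists were chosen with earlier results of these data known. CPM was the count over the library total times 1e+06. Tests used edgeR 4.0.16 in R 4.3.3 (filterByExpr, TMM with factors 0.92 to 1.08, quasi-likelihood, 4 groups, 70527 genes, Benjamini-Hochberg). The fit was tested on simulated data. Alternatives were DESeq2 1.42.0, limma 3.58.1 voom with sample weights, other scalings, no filter, the study's adjusted p under 1e-06 by a likelihood ratio test and DESeq2, a replicate block, and each library left out. The control comparison among genes of at least 5 CPM in both controls, the flanking genes after the exclusions, and the list calls, pair correlations and likeness without ‘Ellvis’ control replicate 1 were chosen after seeing the data.

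The rule for named genes took the 10 members highest in ‘Mv 17-09’ controls, the 10 deepest falls, neighbouring IDs at most 2000 apart, the 5 largest and 5 smallest control differences, 2 genes on each side of each limit, and the 5 genes most alike by Pearson correlation with a prior count of 2. Others named were chosen after their values were seen. Matplotlib 3.10.9 drew the figures.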

Additional observations from a re-analysis of the deposited data

Results flagged for a closer look

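The heat effect differed between the cultivars by a test of the difference itself (edgeR quasi-likelihood test, all negative, meaning a deeper fall in ‘Mv 17-09’) in 64 of the 83 genes. Over all genes tested, 3.75% were called negative. The contrast chose the 83 genes, so the count of 64 is a description.

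In ‘Ellvis’ control replicate 1, the shallow library that the choice of genes does not use, 50 of the 83 genes were at least 2 times as high as the mean of ‘Ellvis’ control replicates 2 and 3. This was 60.2% of the members, against 5.76% of the 23445 genes over both control minimums. The count was 49 with TMM library sizes and 50 with DESeq2 size factors, which were tried after the data had been seen. The labels do not set this library apart from the other controls of its group.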

How the results depend on the processing

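The number of genes the rule chose was 83, and 74 to 94 without one library. It was 47 with ‘Ellvis’ control replicate 1 in the control mean, 276 with a fall to at most 1/4 and 44 with ‘Ellvis’ ratios between 0.8 and its reciprocal. Calls of a negative cultivar difference numbered 64 over all libraries, where 3.75% of all genes were called, and 38 by the study's criteria. Of genes higher in ‘Mv 17-09’ controls, 12 were called, where 5.83% of all genes were, and 7 by the study's criteria. Of genes lower in ‘Mv 17-09’ controls, 12 were called with all libraries, where 7.02% of all genes were. It was 6 by DESeq2, 3 by limma, 0 by the study's criteria (2.24% of all genes were), and 3 to 19 without one library. The share of all genes called differs between such settings, so nothing is read from these counts. Without one library, the log2 control difference ranged between -3.085 and 0.048 for TraesCS5B03G1036200 and between -2.524 and 0.13 for TraesCS5D03G0939500, in both positive only without ‘Ellvis’ control replicate 1. The call of a lower level in heat-stressed ‘Mv 17-09’ held for 73 members by DESeq2, 61 by the study's criteria and 80 or more in the other alternatives run. The choice of the genes all but fixes this call, and no share of all genes is given beside these counts, so nothing is read from their differences. The log2 fold changes of 32 named genes kept their sign in each alternative.

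Replicate numbers are shared between groups in the labels, but nothing states that a number marks a shared batch. Correlations of same-numbered deviations from group means were -0.145 to 0.343 over 18 pairs and exceeded 0.1 in 3, all between heat-stressed and control ‘Ellvis’. With the replicate block, 6 members were lower in ‘Mv 17-09’ controls, where 6.83% of all genes were, and 11 were higher. With the block 65 had a negative cultivar difference and 83 were lower in heat-stressed ‘Mv 17-09’, counts that the choice of the genes largely sets. No share of all genes is given beside the 11, 65 and 83, so nothing is read from them.

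Depth limits most the 3 members with 3 or fewer counts in heat-stressed ‘Mv 17-09’, whose folds are known only within wide intervals. Other deep falls also rest on few counts there, with 3, 1 and 3 in TraesCS5B03G1036200 and 1, 2 and 6 in TraesCS5B03G0139300. No interval is given for these folds.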
